A study of Mus musculus with 36 samples.

Results

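Cytochromes P450 are haem enzymes that oxidise drugs, steroids, fatty acids and plant compounds. Members of families 1 to 4 were taken as every probe of the deposited value table whose annotated mouse symbol reads Cyp, a family number from 1 to 4, a subfamily letter and a gene number. That gave 60 of 23982 probes, for 48 of 14739 genes with a symbol. Family 1 had 3 genes on 3 probes, family 2 had 30 genes on 37 probes, family 3 had 5 genes on 8 probes and family 4 had 10 genes on 12 probes. In all, 38 genes had 1 probe, 8 had 2 and 2 had 3. A further 22 P450 probes had other symbols and were not members, among them Cyp4a12a, Cyp4a12b and Cyp3a41a, whose names end in a letter.

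The RNA came from liver and spleen of male BALB/c mice on standard chow, all of which had received J558 myeloma cells, a mouse plasma cell tumour line, under the skin of the neck. As their only named difference in treatment, mice drank either distilled water or OPP, the water-soluble phenolics of oil palm fruit, at 1500 ppm gallic acid equivalents. Each tissue had 6 groups of 3 arrays: water and OPP at 18 hours (mice aged 6 weeks), 1 week (7 weeks) and 4 weeks (10 weeks), so that time and age cannot be told apart. No group without tumour cells was analysed here, the treatment label of every sample reads 4 weeks after inoculation whatever its time label, and nothing says whether a replicate was 1 mouse or a pool, so p-values measure only the spread between these arrays.

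Every value below is the log2 of a ratio, taken by the authors between a probe's signal in 1 array and the median of that probe in the 18 arrays of the same tissue. Such a ratio keeps no absolute level, so no gene was compared with another in abundance, liver was not compared with spleen, and the labelled tissue could not be checked against its defining markers. A difference is later minus earlier or OPP minus water on that log2 scale. Its standard error (SE) comes from a limma fit over the 6 groups of the tissue with 3 arrays in each. Calls were made where the p-value, adjusted by Benjamini-Hochberg across the 23982 probes, was under 0.05.

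Most hepatic P450 genes are made in hepatocytes. Family 1 is switched on through the aryl hydrocarbon receptor, Cyp2b and Cyp2c genes through the receptor CAR (gene Nr1i3), Cyp3a genes through PXR (Nr1i2) and Cyp4a genes through PPAR-alpha (Ppara). Inflammation is known to lower many of these transcripts in liver while acute phase genes rise.

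The P450 genes are clustered families of near copies, so probes of different genes may read the same transcript. The upstream sequences below lie outside the transcript and cannot show where this happens. Stretches of 150 bases upstream of the annotated start were taken from RefSeq (GRCm38.p6) for 5 of the members on which the results turn, and a window was given for 42 of the 48 genes. Capitals mark matches to TTGCNNAA (a C/EBP-like sequence) and CAAAGTNC (the core bound by the liver factor HNF4), searched on both strands. They run 5′ to 3′ on the gene's own strand, at chr7:26835189-26835338 (plus strand) for Cyp2a5, chr7:26307042-26307191 (plus) for Cyp2a4, chr19:39992274-39992423 (plus) for Cyp2c37, chr19:40089529-40089678 (plus) for Cyp2c50 and chr5:137921620-137921769 (minus) for Cyp3a13.
Cyp2a5: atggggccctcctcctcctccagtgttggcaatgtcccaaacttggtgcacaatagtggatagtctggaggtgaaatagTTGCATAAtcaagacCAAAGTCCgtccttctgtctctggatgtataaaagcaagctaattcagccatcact
Cyp2a4: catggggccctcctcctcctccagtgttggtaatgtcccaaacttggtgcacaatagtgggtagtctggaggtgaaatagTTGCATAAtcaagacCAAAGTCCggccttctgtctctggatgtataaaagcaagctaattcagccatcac
Cyp2c37: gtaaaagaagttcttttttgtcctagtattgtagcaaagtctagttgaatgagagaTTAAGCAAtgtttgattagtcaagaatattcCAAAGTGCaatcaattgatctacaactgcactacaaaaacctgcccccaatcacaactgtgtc
Cyp2c50: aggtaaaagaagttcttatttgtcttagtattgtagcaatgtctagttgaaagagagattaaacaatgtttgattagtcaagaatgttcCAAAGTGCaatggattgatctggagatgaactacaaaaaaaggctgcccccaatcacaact
Cyp3a13: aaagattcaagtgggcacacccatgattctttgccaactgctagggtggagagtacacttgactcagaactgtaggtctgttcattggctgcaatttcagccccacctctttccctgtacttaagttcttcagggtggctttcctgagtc

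Over 250 upstream bases the Cyp2a5 and Cyp2a4 sequences were 97.6% identical and those of Cyp2c37 and Cyp2c50 84.3% identical, against 53.5% for Cyp3a13 and Cyp3a11. Both Cyp2a sequences held both motifs, and Cyp3a13 held neither in the stretch printed. Cyp2c37 held both and Cyp2c50 the HNF4 core alone. Over the 42 windows, CAAAGTNC occurred in 12 (28.6%, against 3.4% of 32851 windows of the same length) and TTGCNNAA in 10 (23.8%, against 9.56%). The sequence TTANGTAA, bound by the PAR bZIP factors to which Dbp belongs, occurred in 1 member window, that of Cyp2c38 (2.38%, against 2.06%). Members were counted on 1 window per gene, while the 32851 windows could hold more than 1 per gene, so the shares differ in unit. Since the genes are duplicates of each other these matches are not independent, and the letters were chosen after looking at the sequences. Neither probe nor transcript sequences were compared here, and upstream identity does not show which probes share a target. Signals of Cyp2a4 and Cyp2a5, of Cyp2c37, Cyp2c50 and Cyp2c54, and of other close paralogs may be shared.

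In liver, many of the P450 probes were low at 18 hours in both drinks and higher at 1 and 4 weeks. In the 6 arrays of 18 hours the median of the 60 members lay between -0.46 and -0.08, while the median of all probes lay between -0.03 and 0.01. In the 12 later arrays the median of the members lay between -0.04 and 0.18. For 15 member probes of 13 genes all 6 arrays of 18 hours were below all 12 later arrays, as were 4.5% of all probes. Both of the opposite cases, of 1.65% of all probes, were probes of Cyp3a13.

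**Figure D1:**
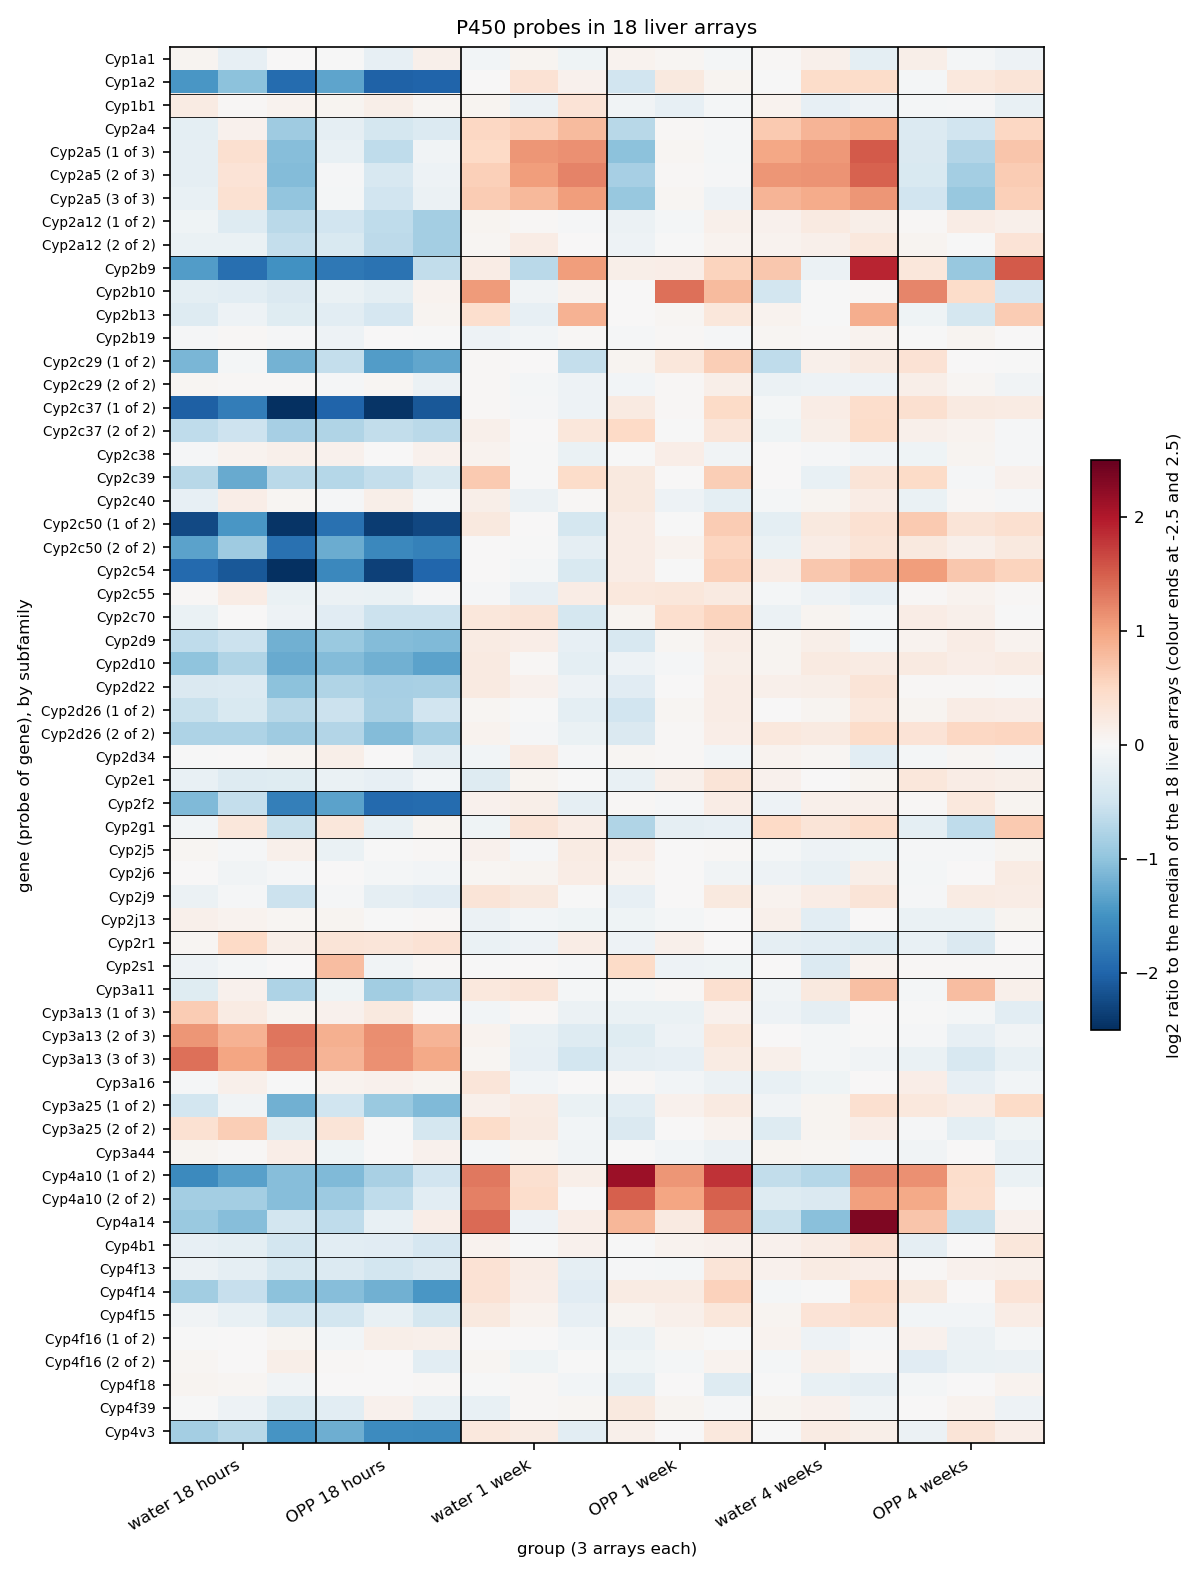
Heat map of the 60 P450 probes (rows, by subfamily) in the 18 liver arrays (columns, 3 per group). Colour is the log2 ratio to the probe's median over the liver arrays, blue below and red above it, with the scale ending at -2.5 and 2.5; the 6 columns of 18 hours are blue for Cyp1a2, Cyp2f2, Cyp4v3 and most of Cyp2c and Cyp2d and red for 2 of 3 Cyp3a13 probes.

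Under water, 21 of 60 member probes were called between 18 hours and 1 week, against 7.12% of all probes. Of these, 19 rose (4.46% of all probes rose) and 2 fell (2.66%). Between 18 hours and 4 weeks 30 were called, against 9.21% of all probes, of which 26 probes of 20 genes rose (5.91% of all probes) and 4 probes of 2 genes fell (3.29%). The median difference of the 60 members was 0.39 at 1 week and 0.52 at 4 weeks, beside 0.01 and 0.02 over all probes. Both comparisons use the same 3 arrays of 18 hours.

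Under OPP, which shares no array with water, 29 member probes were called at 1 week, 27 higher and 2 lower, against 17.3% of all probes (14.7% higher, 2.61% lower). At 4 weeks 29 were again called, 26 higher and 3 lower, against 16.9% (13.7% higher, 3.16% lower). The median differences were 0.35 and 0.30, beside 0.03 and 0.04 over all probes. Of the probes called at 1 week, 19 were called in both drinks, 90.5% of the water list and 65.5% of the OPP list. At 4 weeks 23 were called in both, 76.7% of the water list and 79.3% of the OPP list. All of these moved in the same direction in both drinks. The matching overlap over all probes was not computed. In all 4 of these comparisons with 18 hours, 17 members (28.3%) were called in the same direction, against 3.99% of all probes.

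Neither drink had a called member between 1 and 4 weeks in the limma fit, where 0.00417% of all probes were called in each. Under water 3 members (5%), and under OPP 6 (10%), had an unadjusted p under 0.05, as did 7.19% and 6.7% of all probes. The smallest adjusted p of a member was 0.516 under water and 0.385 under OPP.

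Family 1 differed within itself. Cyp1a2, a caffeine and arylamine oxidase of the hepatocyte, read -1.45, -1.03 and -1.93 in the water arrays of 18 hours and -1.31, -2.02 and -2.0 in those of OPP. At 4 weeks it read -0.01, 0.45 and 0.47 under water and -0.05, 0.27 and 0.33 under OPP, so that the arrays of the 2 times did not overlap. The rise was 1.78 (SE 0.23, 3.43-fold, limma adjusted p 5.75e-05) under water and 1.96 (SE 0.23, adjusted p 1.44e-05) under OPP. Cyp1a1, its relative best known for induction by dioxins and polycyclic hydrocarbons, stayed between -0.24 and 0.15 in all 18 arrays, with a difference of 0.01 (SE 0.11) under water. Cyp1b1, found mainly outside the liver, differed by -0.19 (SE 0.11, adjusted p 0.339).

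Some of the larger changes were in Cyp2c, a subfamily of 9 genes on 12 probes that metabolises drugs and makes signalling lipids from arachidonic and linoleic acid. By 4 weeks 6 of its probes had risen under water and 8 under OPP, with none lower. Cyp2c37 (probe 1 of 2) read -2.04, -1.73 and -2.57 under water at 18 hours and -2.0, -2.46 and -2.12 under OPP. Its 12 later arrays lay between -0.13 and 0.48, well clear of the arrays of 18 hours. The rise at 4 weeks was 2.31 (SE 0.18, 4.95-fold, limma adjusted p 1.98e-07) under water and 2.47 (SE 0.18, 9.23e-08) under OPP. Its other probe rose by 0.82 (SE 0.13) under water.

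Cyp2c54 had the largest difference of the members at 4 weeks in each drink, rising by 2.75 (SE 0.21, 6.72-fold, adjusted p 1.98e-07) under water and 2.74 (SE 0.21) under OPP. It read -1.94, -2.11 and -2.48 in the water arrays of 18 hours, 0.00, -0.04 and -0.38 at 1 week and 0.19, 0.66 and 0.85 at 4 weeks. Every array of 1 week was thus below every array of 4 weeks, and it had the smallest p of the members in that comparison, yet the difference of 0.71 (SE 0.21) had an adjusted p of 0.516. The probes of Cyp2c50, the near copy of Cyp2c37 in the sequences above, rose by 2.18 (SE 0.24) and 1.48 (SE 0.19) under water. Cyp2c39 rose by 0.93 (SE 0.20). Cyp2c29 has a probe that read -1.15, -0.04 and -1.19 at 18 hours under water and missed the threshold there (0.70, SE 0.29, adjusted p 0.173) while rising by 1.21 (SE 0.29, 0.00652) under OPP. Its second probe stayed between -0.14 and 0.15 in all 18 arrays, so the 2 probes of this gene disagree. Cyp2c70, which forms the muricholic acids of mouse bile, rose under OPP at 4 weeks (0.56, SE 0.16, adjusted p 0.0197) and had a difference of 0.06 (SE 0.16) under water. Cyp2c38 and Cyp2c40 lay between -0.24 and 0.24 in every liver array.

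**Figure D2:**
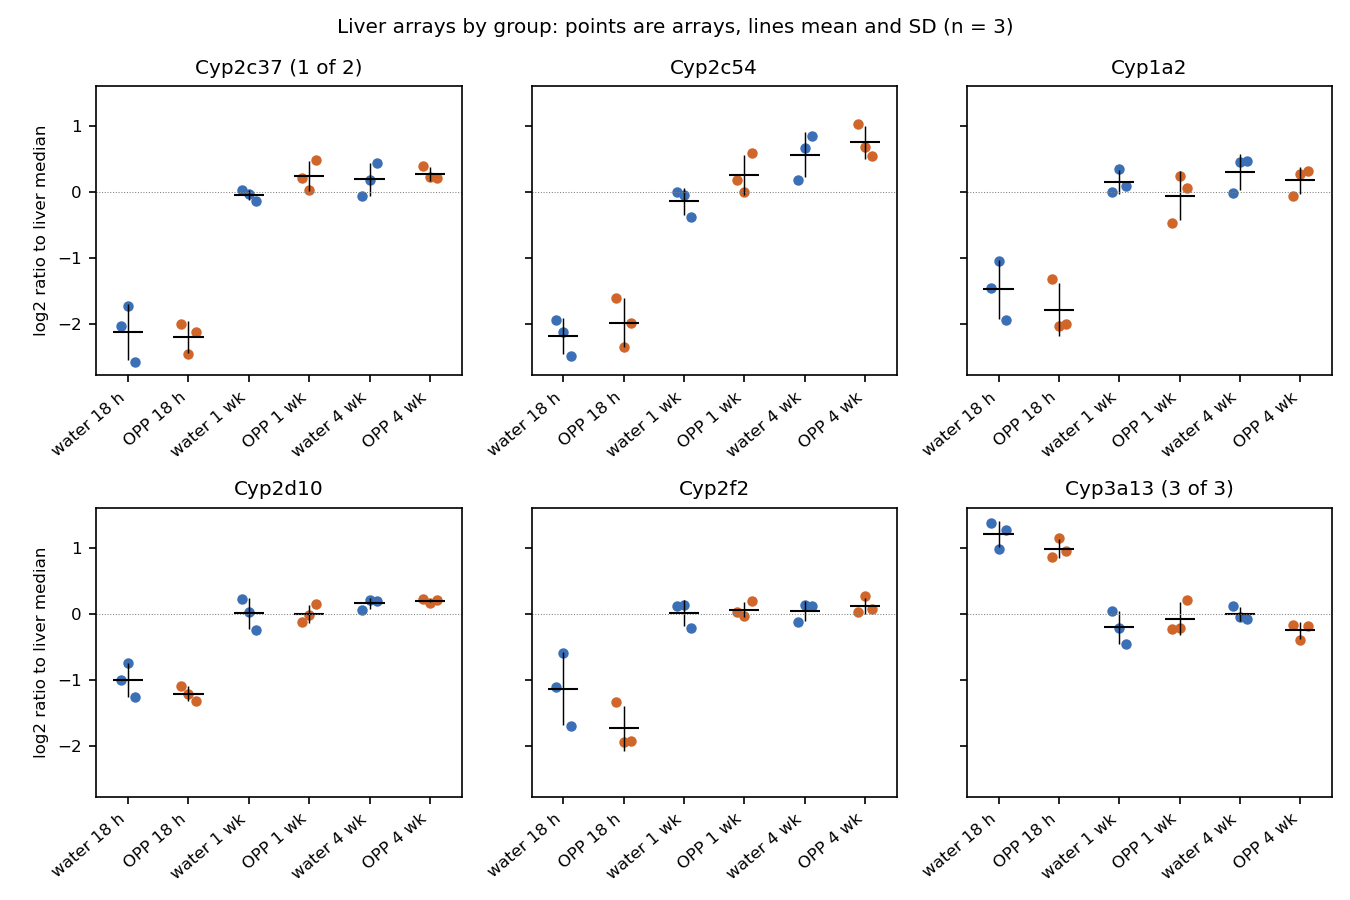
Log2 ratio to the liver median in each array (points, blue water and orange OPP), with the mean and SD of the 3 arrays of a group, for 6 P450 probes. Cyp2c37, Cyp2c54, Cyp1a2, Cyp2d10 and Cyp2f2 are lower in all 6 arrays of 18 hours than in the 12 later ones, and Cyp3a13 is higher.

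Cyp2d, the subfamily of drug and steroid hydroxylases to which the male-predominant Cyp2d9 belongs, moved as a block apart from 1 gene. Of its 6 probes 5 rose at 4 weeks in each drink, by 0.65 to 1.16 under water, and Cyp2d34 differed by -0.06 (SE 0.10). Cyp2d10 read -1.0, -0.75 and -1.27 under water and -1.09, -1.21 and -1.33 under OPP at 18 hours, against 0.06 to 0.22 in all 6 arrays of 4 weeks. Its rise was 1.16 (SE 0.12, limma adjusted p 7.99e-06) under water. Cyp2f2, which activates naphthalene in airway and liver, rose by 1.18 (SE 0.20, 0.000949) under water and by 1.86 (SE 0.20, 7.49e-06) under OPP. Cyp2e1, the ethanol-oxidising P450, moved little: it lay between -0.32 and 0.32 in all 18 arrays, and rose by 0.35 (SE 0.11, adjusted p 0.0359) under OPP while the difference of 0.32 (SE 0.11, 0.085) under water was not called.

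Cyp2b9, a female-predominant gene of a CAR-responsive subfamily, was low at 18 hours (-1.39, -1.88 and -1.52 under water, -1.78, -1.84 and -0.61 under OPP) and scattered at 4 weeks (0.67, -0.15 and 1.90 under water, 0.29, -0.94 and 1.54 under OPP). The water arrays of these times did not overlap, while those of OPP did. Its rise was 2.40 (SE 0.55, adjusted p 0.00792) under water and 1.71 (SE 0.55, 0.0379) under OPP. Without water replicate 3 of 4 weeks the first fell to 1.86 (adjusted p 0.0591), and without OPP replicate 3 of 4 weeks the second fell to 1.09 (0.234). The second was also not called without OPP replicate 1 of 18 hours (adjusted p 0.124), replicate 2 of 18 hours (0.146) or replicate 1 of 4 weeks (0.0793). Cyp2b10, the usual marker of CAR activation, was not called at any time. It read 1.07 in water replicate 1 of 1 week, 1.37 and 0.79 in OPP replicates 2 and 3 of 1 week and 1.22 in OPP replicate 1 of 4 weeks, and these do not form a group. Cyp2j, the arachidonic acid epoxygenases, had 1 called probe of 4 at 4 weeks under water, Cyp2j9 at 0.43 (SE 0.13, adjusted p 0.0485). Cyp2g1 of the olfactory lining and Cyp2s1 of skin and airway epithelium had none.

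Cyp2r1, which converts vitamin D to its circulating form, was among the few that fell. It read 0.05, 0.50 and 0.14 under water and 0.33, 0.30 and 0.36 under OPP at 18 hours, and -0.22, -0.26 and -0.32 under water at 4 weeks. The fall was -0.50 (SE 0.12, adjusted p 0.0113) under water and -0.51 (SE 0.12, 0.00542) under OPP. Without water replicate 2 of 18 hours it was -0.36 (adjusted p 0.0702), and without water replicate 3 of 4 weeks -0.47 (0.051).

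Family 3 went in 2 directions. Cyp3a13 (probe 3 of 3) read 1.37, 0.99 and 1.27 under water and 0.86, 1.14 and 0.95 under OPP at 18 hours, above all 12 later arrays, which lay between -0.45 and 0.21. It fell by 1.21 on the log2 scale (SE 0.14, limma adjusted p 1.63e-05) under water and by 1.24 (SE 0.14, 9.32e-06) under OPP at 4 weeks. Its probe 2 fell by 1.12 (SE 0.14) and its probe 1 by 0.42 (SE 0.13, adjusted p 0.0429) under water. The call of probe 1 was lost without any single water array of 4 weeks (adjusted p 0.0552 to 0.16) or without water replicate 1 (0.23) or 2 (0.0562) of 18 hours. Cyp3a11, the main PXR-responsive testosterone and drug oxidase, was not called under water (0.63, SE 0.25, adjusted p 0.16) and rose by 0.86 (SE 0.25, 0.0249) under OPP. Cyp3a25 has a probe that rose by 1.15 (SE 0.22, 0.00119) under OPP and another with a difference of -0.09 (SE 0.22). Cyp3a16 and Cyp3a44 lay between -0.20 and 0.30.

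In family 4, Cyp4a10, a fatty acid omega-hydroxylase and PPAR-alpha target, had its highest group means at 1 week. Its probe 1 of 2 read -1.59, -1.36 and -1.06 under water and -1.11, -0.81 and -0.48 under OPP at 18 hours. At 1 week it read 1.32, 0.41 and 0.15 under water and 2.14, 1.10 and 1.81 under OPP, and at 4 weeks -0.62, -0.71 and 1.21 under water and 1.14, 0.44 and -0.17 under OPP. The arrays of 18 hours and 1 week did not overlap, while those of 4 weeks spread across both. Cyp4a10 rose to 1 week by 1.96 (SE 0.43, adjusted p 0.00842) under water, which became 1.61 (0.0543) without water replicate 1 of 1 week, and by 2.48 (SE 0.43, 0.000507) under OPP. At 4 weeks neither difference of this probe was called (water 1.30, SE 0.43, adjusted p 0.0702; OPP 1.27, SE 0.43, 0.0507). The other Cyp4a10 probe was called at 4 weeks under OPP (1.05, SE 0.34, 0.0375) and not under water (1.04, SE 0.34, 0.0626). Cyp4a14, its relative, ranged from -1.06 to 2.34 and was called in no comparison.

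Other family 4 genes rose as well. Cyp4v3, a fatty acid hydroxylase, read -0.84, -0.70 and -1.47 under water and -1.22, -1.58 and -1.59 under OPP at 18 hours and rose by 1.11 (SE 0.18, adjusted p 0.000463) and 1.58 (SE 0.18, 9.36e-06) by 4 weeks. Cyp4f14 rose by 0.97 (SE 0.18) and 1.43 (SE 0.18). Of the 7 Cyp4f probes, which belong to hydroxylases of leukotrienes and fatty acids, 3 rose under water at 4 weeks and 2 under OPP. Cyp4b1 rose by 0.53 (SE 0.11) and 0.34 (SE 0.11).

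**Figure D3:**
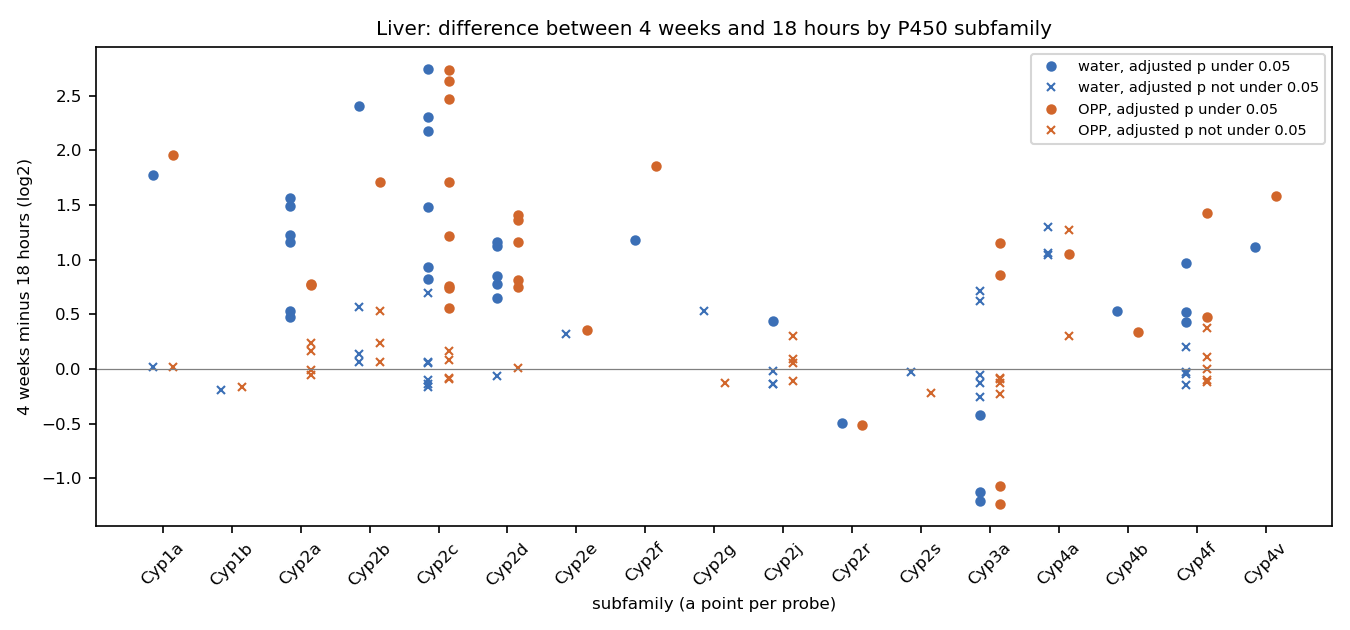
Difference between 4 weeks and 18 hours in liver (log2) for each of the 60 P450 probes, by subfamily, under water (blue) and OPP (orange). Circles had an adjusted p under 0.05 and crosses did not; the highest values are in Cyp2c and the lowest in Cyp3a.

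Other genes of oxidative metabolism were counted beside the P450s, each gene on its probe of highest SD over the same 18 liver arrays. This choice favours probes that vary, here and in the other gene lists below. No share over all genes chosen in that way was computed. The list counts therefore cannot be set against those of the P450 probes, which were all counted. Among other oxidation and hydrolysis enzymes 16 of 30 rose and 2 fell between 18 hours and 4 weeks under water, with a median of 0.61. The esterases Ces1d at 2.15 (SE 0.21), Ces1g at 2.07 (SE 0.28) and Ces1f at 1.89 (SE 0.33) and the aldehyde oxidase Aox3 at 1.69 (SE 0.29) led. Of the conjugation enzymes 8 of 24 rose and 1 fell: the methyltransferase Inmt rose by 2.10 (SE 0.23) and Nnmt, which methylates nicotinamide, fell by 3.27 on the log2 scale (SE 0.47). Drug and bile transporters had 6 of 14 higher and none lower, Slc47a1 by 0.95 (SE 0.10).

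Of 13 genes that supply electrons or haem to P450s, 5 rose and 1 fell, with Cyb5r3 at 0.97 (SE 0.13) and Cyb5b at 0.88 (SE 0.15). Among 22 receptors and transcription factors 3 rose and 1 fell. Nr1i3 (CAR) rose by 1.41 (SE 0.13), Ppara by 0.65 (SE 0.20, adjusted p 0.0464) and Nr1i2 (PXR) by 0.60 (SE 0.13), while Cux2 fell by 0.65 on the log2 scale (SE 0.11). Targets outside the P450s were higher in 2 of 6 cases for the aryl hydrocarbon receptor, led by Gsta1 at 1.56 (SE 0.37), and in 4 of 16 for PPAR-alpha with 1 lower, led by Acot3 at 2.27 (SE 0.43). P450 families beyond 4 had 3 of 15 higher and 1 lower, the last being the steroid lyase Cyp17a1, which fell by 1.69 on the log2 scale (SE 0.21). Genes higher in male liver had 1 higher and 1 lower of 11, and genes higher in female liver 1 higher and 2 lower of 10, these being Acot3, Cyp17a1 and Cux2 again. Under OPP the male list had 6 higher and none lower of 11 both at 1 week (median 0.91) and at 4 weeks (0.47), and the female list none higher with 3 and 2 lower of 10. The difference between the drinks in these lists was not tested.

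Acute phase genes moved with the P450s in the opposite direction: 17 of 20 fell by 4 weeks under water, and 17 of 20 under OPP. Saa2, a serum amyloid, read 6.46 to 6.86 in the 6 arrays of 18 hours and -1.09 to 1.84 in the 12 later ones. Both probes of Nr1i3 were between -1.37 and -0.45 in the 6 arrays of 18 hours and between -0.28 and 0.62 later. The part of these genes in the P450 differences was not tested. The hepatocyte marker list (8 genes measured) had a median between -0.20 and 0.02 in the arrays of 18 hours and between -0.19 and 0.20 in the later ones, and in bulk RNA fewer hepatocytes and less RNA per hepatocyte cannot be told apart.

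Markers of other cell types also moved with time in liver. The macrophage and Kupffer cell list (5 genes measured) had a median between 0.59 and 1.12 in the water arrays of 18 hours and between 0.84 and 1.03 in those of OPP, above all 12 later arrays (-0.31 to 0.27). Of its genes Marco, Adgre1 and Lyz2 were higher in all 6 arrays of 18 hours than in all later ones, Marco at 2.81 to 3.61 against -0.39 to 0.24. Clec4f, a marker of resident Kupffer cells, was lower in all 6, at -2.22 to -1.60 against -0.35 to 0.44, and Cd5l overlapped. The part of these cells in the P450 differences was not tested.

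Ucp1 of brown fat was raised in several liver arrays of 18 hours, at 2.48, 4.28 and 3.01 under OPP and at 2.25 in water replicate 1. It also read 6.38 in water replicate 3 of 1 week, 4.14 in water replicate 3 of 4 weeks and 3.80 in OPP replicate 1 of 4 weeks, and at most 0.04 in the other 11 arrays. Ctrb1 of the pancreas read 7.51 in that OPP array. With the last 3 of these arrays left out together, 21 members (35%) were called between 18 hours and 1 week under water, 24 (40%) at 4 weeks under water and 29 (48.3%) at 4 weeks under OPP, against 5.11%, 6.1% and 15.2% of all probes. That fit keeps the arrays of 18 hours with Ucp1 signal, whose part in the differences was not tested. Ucp1 is 1 of 5 measured genes of an adipocyte list that did not move together. The list median at 18 hours lay between -0.17 and 0.30 under water and between 0.02 and 0.92 under OPP. Its gene Car3 was lower in all 6 arrays of 18 hours, at -3.47 to -1.93 against -0.22 to 0.89 later. Adipoq, Cidea and Lep overlapped between these times, as did Ucp1.

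Between the drinks no member was called in liver. Called members of OPP against water numbered 0 of 60 in the limma fit at 18 hours, at 1 week, at 4 weeks and for the mean of the 3 times, where 0%, 0.926%, 0.0625% and 0.346% of all probes were called. Of all probes, 0.705% were called higher and 0.221% lower at 1 week, 0.0417% and 0.0208% at 4 weeks, and 0.171% and 0.175% for the mean. At an unadjusted p under 0.05 there were 6, 7, 6 and 9 members, or 10%, 11.7%, 10% and 15%, beside 7.61%, 10.9%, 7.74% and 10.3% of all probes. A moderated F test of whether the OPP effect differed between times also called 0 members, against 0.108% of all probes. It had 8 members at an unadjusted p under 0.05 (13.3%, beside 9.28% of all probes). At these group sizes the SE of a single probe's OPP effect ran as high as 0.61, for Cyp4a14, so that changes of moderate size would be missed in the noisier genes.

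The members with the smallest p at 1 week and 4 weeks were the probes of Cyp2a5, a coumarin and nicotine oxidase, and Cyp2a4, a steroid hydroxylase. Cyp2a5 (probe 2 of 3) read 0.59, 1.04 and 1.24 under water and -0.83, 0.03 and -0.03 under OPP at 1 week. At 4 weeks it read 1.10, 1.13 and 1.48 under water and -0.37, -0.85 and 0.64 under OPP, so that at both times every OPP array was below every water array. At 18 hours the drinks overlapped, with -0.23, 0.34 and -1.09 under water and -0.03, -0.40 and -0.12 under OPP. OPP minus water was 0.15 (SE 0.34) at 18 hours, -1.23 (SE 0.34, limma adjusted p 0.111) at 1 week and -1.43 (SE 0.34, 0.141) at 4 weeks.

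Over the 3 times the mean OPP effect on the Cyp2a5 probes was -0.86 (SE 0.21), -0.84 (SE 0.20) and -0.79 (SE 0.20), with adjusted p-values of 0.0855, 0.0738 and 0.0893. Cyp2a4 read 0.53, 0.60 and 0.78 under water and -0.69, 0.02 and -0.02 under OPP at 1 week, and 0.66, 0.84 and 0.95 against -0.33, -0.48 and 0.53 at 4 weeks. Its mean effect was -0.59 (SE 0.14, adjusted p 0.0796). None of the 4 probes passed the threshold, and the F test gave adjusted p-values of 0.32 for Cyp2a5 (probe 2) and 0.443 for Cyp2a4.

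The Cyp2a calls depended on single arrays and on scaling. With OPP replicate 3 of 4 weeks left out, all 4 probes were called as lower under OPP at 4 weeks, with adjusted p from 0.0178 to 0.0402, and for the mean, from 0.00721 to 0.0127. Calls over all probes rose as well in that fit, from 15 to 81 at 4 weeks and from 83 to 363 for the mean. Without water replicate 3 of 18 hours the 4 Cyp2a probes were called for the mean alone, from 0.0239 to 0.0307, with 189 of all probes called. Quantile normalisation called 3 of the 4 at 1 week and all 4 at 4 weeks and for the mean, and array weights called all 4 at 4 weeks and for the mean.

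Under water the same probes had risen from 18 hours to 4 weeks, Cyp2a5 by 1.49 (SE 0.36), 1.57 (SE 0.34) and 1.22 (SE 0.34) and Cyp2a4 by 1.16 (SE 0.24), all called, while under OPP their differences were -0.05 to 0.24 and none was called. The first of the Cyp2a5 rises was not called without water replicate 3 of 18 hours (adjusted p 0.0903) or of 4 weeks (0.0703). Cyp2a12, the third gene of the subfamily, rose in both drinks. The difference between the drinks in these rises was not tested as a contrast of its own. The F test above, which also takes in 1 week, called no member, nor did the comparisons at 18 hours or 4 weeks.

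Dbp, a PAR bZIP factor of the circadian clock that is known in mouse liver to activate Cyp2a5, is shown beside them and was chosen after its values were seen. It read 0.40, 0.49 and 0.62 under water and -1.81, -0.42 and -2.29 under OPP at 1 week, and 0.65, -0.33 and 0.68 under water and -0.86, -4.04 and 0.74 under OPP at 4 weeks. Its OPP effect of -2.01 (SE 0.75, adjusted p 0.295) at 1 week was not called in liver. Its part in the Cyp2a values was not tested.

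**Figure D4:**
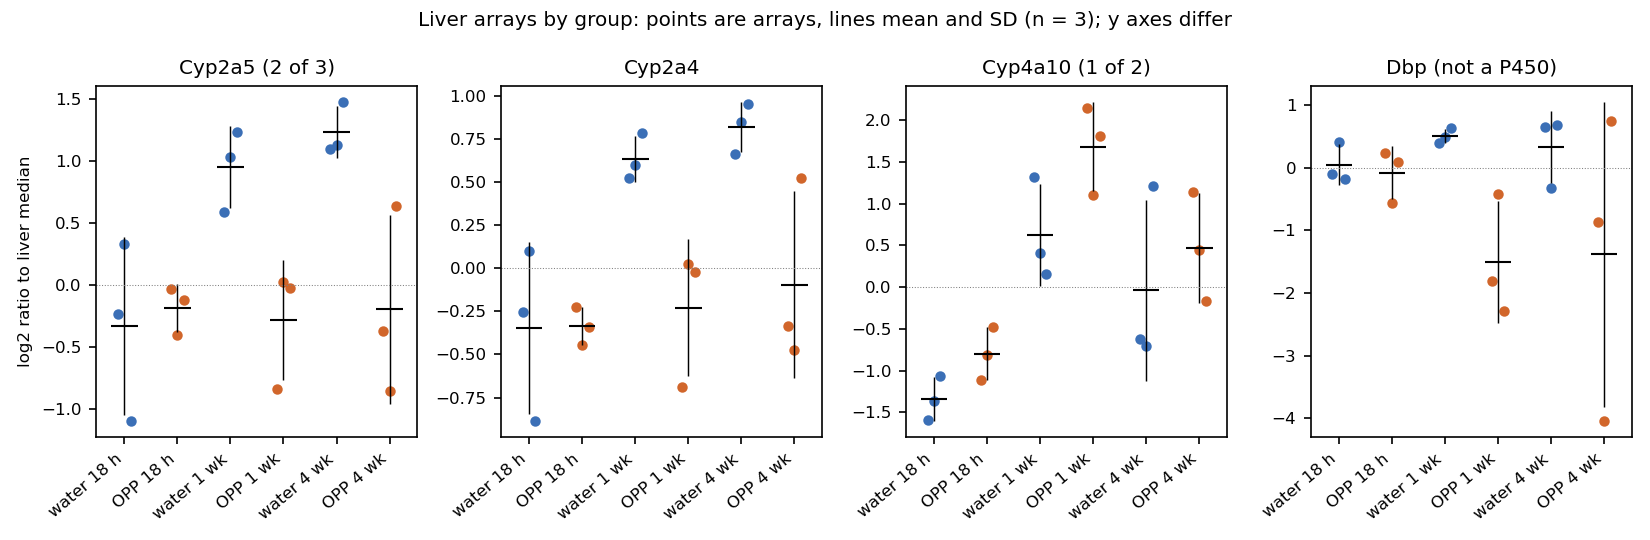
Log2 ratio to the liver median in each array (points, blue water and orange OPP), with mean and SD of the 3 arrays of a group, for Cyp2a5, Cyp2a4, Cyp4a10 and Dbp. At 1 week and 4 weeks every OPP point of Cyp2a5 and Cyp2a4 lies below every water point, and the y axes differ between panels.

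The 5 probes with the smallest p at 18 hours were all lower under OPP and none was called. Their differences were -0.60 for Cyp2f2 (SE 0.20, adjusted p 0.527), -0.46 for Cyp4v3 (SE 0.18, 0.583), -0.41 for Cyp4f14 (SE 0.18, 0.615) and -0.32 (SE 0.13) and -0.29 (SE 0.12) for Cyp2a12. Single arrays moved these values: Cyp2f2 was -0.33 without water replicate 2 and -0.89 without water replicate 3, and Cyp4v3 -0.31 and -0.69. The Cyp2a12 probes ranged from -0.45 to -0.21 and from -0.44 to -0.16, their lowest values also being those without water replicate 3 and their highest those without OPP replicate 3 and water replicate 1. Cyp4f14 ranged from -0.51 without water replicate 3 to -0.29 without water replicate 2. At 1 week Cyp2c55 differed by 0.27 (SE 0.10, adjusted p 0.286), and at 4 weeks Cyp4f16 (probe 2 of 2) by -0.23 (SE 0.09, 0.484). Cyp4a10 (probe 1) had the largest positive mean effect, 0.70 (SE 0.25, adjusted p 0.274). Its OPP mean was above its water mean at each time, by 0.54 (SE 0.43) at 18 hours, 1.06 (SE 0.43) at 1 week and 0.51 (SE 0.43) at 4 weeks.

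Among the other lists 2 genes were called between the drinks in liver. Cyp51, the lanosterol demethylase of cholesterol synthesis and a P450 of another family, was higher under OPP at 1 week by 1.14 (SE 0.22, limma adjusted p 0.02) and for the mean of the 3 times by 0.68 (SE 0.13, 0.0334). Adh4, an alcohol dehydrogenase, was higher at 1 week by 0.62 (SE 0.13, 0.0286). None of the other genes of these lists was called between the drinks at any time: the smallest adjusted p among receptors and factors for the mean was 0.0973, for Cebpb (-0.32, SE 0.08).

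In spleen, an organ in which most of these enzymes are not known to be prominent, few P450 probes were called. OPP against water called 0 of 60 members in the limma fit at 18 hours, 1 week, 4 weeks, for the mean of the 3 times and in the F test, against 0%, 0.00834%, 0.334%, 1.69% and 0.00417% of all probes. At an unadjusted p under 0.05 there were 9, 11, 2, 9 and 9 members, or 15%, 18.3%, 3.33%, 15% and 15%. The shares of all probes were 10.9%, 10.2%, 8.87%, 16.7% and 6.94%. The smallest adjusted p was 0.0568, for the mean effect on Cyp4f13 of -0.25 (SE 0.07). That gene read -0.61, -0.25 and -0.39 under OPP and 0.05, 0.02 and -0.12 under water at 1 week, so the drinks did not overlap there. Cyp4f16 (probe 2 of 2) followed with -0.27 (SE 0.08, 0.0837). Both were called with array weights, or without OPP replicate 1 of 18 hours (adjusted p 0.0204 and 0.0292) or OPP replicate 2 of 1 week (0.0389 and 0.0448). Cyp4f13 was also called without water replicate 3 of 1 week (0.0337).

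Between times in the water group of spleen, 0 members were called at 1 week against 18 hours, against 0.65% of all probes. At an unadjusted p under 0.05 there were 9 (15%, beside 12.6% of all probes). Called members numbered 4 at 4 weeks against 18 hours and 7 at 4 weeks against 1 week. In the last 2 comparisons 24.3% and 26.1% of all probes were called, nearly all of them higher (23% and 24.4%), and the median of all probes moved by 0.14 and 0.15. The share of members called was 6.67% and 11.7%. Their median difference was -0.02 and 0.03.

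Cyp4v3 read 0.55, 0.43 and 0.59 at 4 weeks under water against 0.01, 0.01 and -0.20 at 18 hours, without overlap, and rose by 0.58 (SE 0.11, limma adjusted p 0.00168). With each array centred on its median that rise was 0.46 (0.00972). Cyp4f18, which inactivates leukotriene B4 in mouse neutrophils, rose by 0.53 (SE 0.13, 0.00659), or 0.40 centred (0.0342). Against 1 week, Cyp4v3 rose by 0.55 (SE 0.11), Cyp4f18 by 0.48 (SE 0.13), Cyp4f16 by 0.47 (SE 0.14) and Cyp2c54 by 0.38 (SE 0.14), while Cyp2b19 fell by 0.42 (SE 0.12), Cyp2b10 by 0.27 (SE 0.09) and Cyp2a5 (probe 2) by 0.25 (SE 0.09). Of those 4 rises only that of Cyp4v3 was called with centred arrays (0.43, adjusted p 0.0147), and all 3 falls were. Leaving out 1 water array of these times at a time, Cyp4v3 alone of the 7 kept its call each time, and the largest adjusted p of the others was 0.174, for Cyp2c54 without replicate 1 of 4 weeks. The counts changed with scaling. With each array centred on its median, 11 members (2 higher, 9 lower) were called at 4 weeks against 18 hours, or 18.3% beside 14.5% of all probes. Quantile normalisation gave 9 (1 higher, 8 lower), or 15% beside 13.7%. Thus the members' share, lower than that of all probes on the deposited scale, lay a little above it under both. No difference in share was tested. Against 1 week the counts became 5 (1 higher, 4 lower; 8.33% beside 14.3%) and 4 (none higher, 4 lower; 6.67% beside 9.11%).

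Cyp2e1 had the largest range of the members in spleen. It read -0.01, 2.38 and 2.09 under water at 18 hours and 1.71 in OPP replicate 1 of 1 week, and between -0.49 and 0.79 in the other 14 arrays. The hepatocyte marker Apoa2 (probe 2 of 2) read 3.41 and 3.08 in the same 2 water arrays and 3.55 in the same OPP array. Its probe 1 read 1.72 and 1.36 in these water arrays and 1.79 in that OPP array. Not every hepatocyte marker was raised there, since Alb read 0.01 and 0.07 in the water arrays and 0.08 in the OPP array. Ttr read 1.44, 1.35 and 1.67 in these 3 arrays. It also read 1.41 in water replicate 3 of 1 week, where Cyp2e1 read -0.43. The hepatocyte list as a whole had a median from -0.03 to 1.63 in the water arrays of 18 hours and from -0.27 to -0.07 in the OPP arrays of that time. Between 18 hours and 4 weeks the difference for Cyp2e1 was -1.57 (SE 0.50, adjusted p 0.027). It was not called without water replicate 2 (0.136) or 3 (0.121) of 18 hours or replicate 1 of 4 weeks (0.116). Cyp2d26 (probe 1 of 2), which read 0.39, 0.46 and 0.36 at 18 hours and -0.09, 0.00 and -0.10 at 4 weeks, fell by 0.47 (SE 0.10, 0.0036). With both of these water arrays left out, a single array stood for the group, so only differences are given. In that comparison Cyp2e1 then differed by -0.069, while Cyp2d26 (probe 1) differed by -0.46. Cyp4v3 differed by 0.52 and Cyp4f18 by 0.49. OPP minus water at 18 hours for Cyp2e1 was -1.44 (SE 0.50, adjusted p 0.429), and 0.055 without those arrays. Cyp2d9 and Cyp2c70 were also at their highest in arrays with hepatocyte signal, Cyp2d9 at 1.03 and 0.77 in the water arrays and 1.19 in the OPP array.

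**Figure D5:**
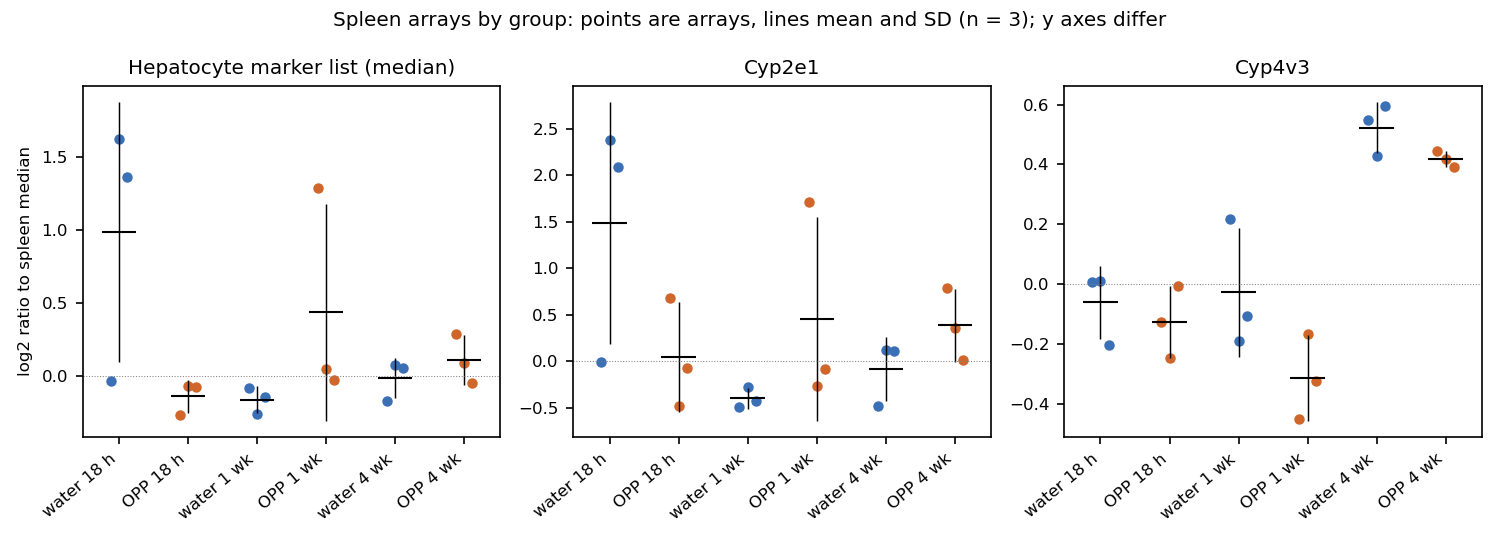
Log2 ratio to the spleen median in each array (points, blue water and orange OPP), with mean and SD of the 3 arrays of a group, for the median of the hepatocyte marker list, Cyp2e1 and Cyp4v3. The 2 highest Cyp2e1 points and the 2 highest points of the hepatocyte list are the same water arrays of 18 hours, while Cyp4v3 is highest at 4 weeks in both drinks.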

How the data were processed

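Liver and spleen RNA of 36 samples was hybridised as biotinylated cRNA to Illumina BeadChips, per the labels. The deposited value table holds linear ratios, in which the authors divided a probe by its median within the tissue (18 arrays), as a check of the file showed. How the authors corrected background or scaled between arrays is not given in the sources used here. A deposited table of signals was not used because its 72 columns match no sample label, so signal over background is unknown. With 3 arrays per group, their number sets the precision.

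For the tests the deposited ratios were put on a log2 scale, without offset or filter. Each tissue was fitted separately by limma 3.58.1 under R 4.3.3 (lmFit and eBayes), with a mean per group and 12 residual degrees of freedom. Adjusted p-values cover all 23982 probes. Of these, 19344 had 1 symbol in the platform annotation and 4638 had none. The pipeline was tested on simulated data. Alternatives were a fit of only the arrays compared, a block for replicate number, array centring, quantile normalisation, array weights and leaving out each array. Leaving out arrays with signal of another tissue was added after seeing the data.

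The members, the 11 gene lists and the tests were chosen with earlier results of these data known. Named with values were up to 8 rises and 8 falls per liver comparison (5 and 5 in spleen), otherwise the 5 (in spleen and F tests, 3) smallest p, the most variable liver probe of each subfamily, and up to 4 called genes of a list, otherwise its 2 smallest p. Other members are given to complete their subfamily.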

Additional observations from a re-analysis of the deposited data

How the results depend on the processing

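Counts of called members moved by more than 1.5 times in these cases. For OPP against water in liver, 0 became 3 at 1 week with quantile normalisation (5% of members beside 1.66% of all probes). With the same scaling 0 became 4 at 4 weeks and for the mean of the 3 times (6.67% beside 0.68% and 1.38%). With array weights 0 became 4 at 4 weeks and for the mean (6.67% beside 0.467% and 2.41%). In spleen, 0 became 1 at 4 weeks with the compared arrays only (1.67% beside 3.34% of all probes). With array weights 0 became 1 at 4 weeks (1.67% beside 5.73%) and 2 for the mean (3.33% beside 3.97%). Between times in spleen under water, 0 became 1 at 1 week against 18 hours with quantile normalisation (1.67% beside 2.41%). At 4 weeks against 18 hours, 4 became 11 with centred arrays (18.3% beside 14.5%) and 9 with quantile normalisation (15% beside 13.7%). With array weights 4 became 8 (13.3% beside 29.4%). The count without both arrays of hepatocyte signal also moved, but a single array then stood for the group, so it is not given. At 4 weeks against 1 week, 7 became 3 with the compared arrays only (5% beside 9.77%) and 4 with quantile normalisation (6.67% beside 9.11%). The cause of these moves was not tested.

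Leaving out 1 array at a time gave 17 to 26 called members for liver water at 1 week against 18 hours, 21 to 29 at 4 weeks, 24 to 30 for OPP at 1 week and 23 to 27 at 4 weeks. The shares of all probes in these fits are not given here, so the ranges show only how the counts moved. It gave 0 to 4 for OPP against water at 4 weeks and for the mean, and 0 in the other liver comparisons. In spleen it gave 0 to 1 for OPP against water at 18 hours (1 without water replicate 1 of 18 hours), 0 to 2 for the mean (2 without OPP replicate 1 of 18 hours, OPP replicate 2 of 1 week or water replicate 3 of 1 week), 0 to 3 for water at 1 week against 18 hours (3 without water replicate 1 of 18 hours, 1 without water replicate 3 of 1 week), 3 to 8 at 4 weeks (8 without the same array) and 2 to 6 at 4 weeks against 1 week (2, 3 and 4 without water replicates 1, 2 and 3 of 4 weeks, 4 without water replicate 3 of 1 week). A single value changed sign: OPP minus water for Cyp2e1 in spleen at 18 hours was 0.055 without both arrays of hepatocyte signal.

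Same-numbered arrays of water and OPP at a time correlated between -0.18 and 0.21 in liver and between -0.29 and 0.08 in spleen after removal of the group means, so the replicate numbers were not taken as pairs. With the replicate number as a block no count of called members moved by more than 1.5 times, with 27 in place of 30 for liver water at 4 weeks against 18 hours. A fit of only the compared arrays was not run for the mean of the 3 times or the F test, which use all arrays of a tissue.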
